A study of Mus musculus with 8 samples.

Results

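Chaperones and chaperonins, the proteins that fold other proteins, were followed in mouse splenic T cells through 34 genes chosen by name, of 15138 genes tested on the arrays. Of these, 11 encode cytosolic heat shock proteins and their cochaperones, 8 the subunits of the cytosolic chaperonin CCT (also called TRiC), 5 mitochondrial chaperones and 10 chaperones of the endoplasmic reticulum (ER). Each gene was read through the probe whose annotated accession is a RefSeq transcript of it, and where a gene had several such probes the brightest over all arrays was taken. All 34 were measured, and each was well above background and unsaturated on all 8 arrays.

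Messenger RNA was measured on one-colour Agilent arrays in 4 groups of 2 arrays each. Lsp1-/- mice (KO) had been bred onto C57BL/6 to generation N10, and wild-type C57BL/6 mice (WT, Lsp1+/+) matched for age and sex were the controls, all 8 to 12 weeks old unless specified otherwise in the labels' protocol. T cells of either genotype had received antibodies against CD3 and CD28 for 6 h, which trigger the antigen receptor complex and its costimulator, or were in medium, giving KO stimulated, KO medium, WT stimulated and WT medium cells. Lsp1 encodes a leukocyte protein that binds actin filaments, and the labels name no tissue-specific deletion, so other cells of these mice lack it too. No label ties the 2 arrays of a group to different mice, and the p-values below measure only how far these samples lie apart, a spread that may be technical. The labels name no method of T cell purification.

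Values are log2 of the background-subtracted spot intensity minus the 75th percentile of that array, so a difference of 1 is a doubling. Levels of different genes are not set against each other, since they come from different probes. Fold changes are given with the standard error of a limma fit over all 8 arrays and 15138 genes, with p-values adjusted by Benjamini-Hochberg over all of them, and a gene is called when its adjusted p is below 0.05. Lsp1 itself read 3.69 and 3.65 on the KO stimulated arrays, against 7.06 and 6.99 on the WT stimulated arrays. In medium it read 3.64 and 3.48 in KO cells, against 7.48 and 7.24 in WT cells, so each KO library carried less Lsp1 signal than each WT library (limma, adjusted p = 0.00268 after stimulation and 0.00126 in medium). Where the probe lies relative to the deleted part of the gene was not tested.

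Chaperones bind unfolded stretches of other proteins and release them in cycles of ATP binding and hydrolysis. The Hsp70 proteins act first, helped by J-domain proteins that deliver substrates and by nucleotide exchange factors that let them go, and pass some clients on to Hsp90 through bridging cochaperones. CCT encloses actin, tubulin and other proteins in a double ring, mitochondria import Hsp70 and Hsp60 machines of their own, and the ER adds lectin chaperones and disulfide isomerases for secreted and membrane proteins. Cytosolic members are classically induced by heat shock factor 1 through heat shock elements. The ER members are classically induced by the unfolded protein response through the ER stress element. Resting T cells are small and make little protein, and stimulation through the T cell receptor is known to start growth and protein synthesis within hours.

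Promoter windows from RefSeq (build GRCm38.p6), reaching from 250 bases before to 50 bases after an annotated start, were at hand for 27 of the 34 genes in 34 windows. The ER stress element, spelled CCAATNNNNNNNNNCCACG and searched on both strands, lay in windows of 6 of the 9 ER genes with a window and in windows of 0 of the other 18 chaperone genes. Among all genes tested on the arrays with a window it lay in 21 of 12093 genes (0.174%), and among all genes of the table in 0.137%. Dnajb9, Pdia3 and Pdia4 had windows without it. The matches are shown in full because all of them lie in ER genes, with the fixed letters in capitals; Hsp90b1 had a match in each orientation. A match is only a run of letters, and says nothing by itself about binding.
Calr, chr8:84847075-84847093, gene on the minus strand: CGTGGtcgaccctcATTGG
Canx, chr11:50325800-50325818, gene on the minus strand: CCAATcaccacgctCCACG
Dnajc3, chr14:118937827-118937845, gene on the plus strand: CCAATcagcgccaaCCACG
Hsp90b1, chr10:86705638-86705656, gene on the minus strand: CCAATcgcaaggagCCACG
Hsp90b1, chr10:86705533-86705551, gene on the minus strand: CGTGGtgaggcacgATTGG
Hspa5, chr2:34772025-34772043, gene on the plus strand: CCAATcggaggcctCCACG
Pdia6, chr12:17266491-17266509, gene on the plus strand: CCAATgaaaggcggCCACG

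The core of the heat shock element was searched as GAANNTTC or TTCNNGAA, both of which read the same on either strand. It lay in windows of 7 of the 27 genes: Hsph1, Dnaja1, Cct2, Cct5, Cct6a, Hspd1 and Hspe1. Of all genes tested with a window 14.2% held it. Windows with 3 matches belonged to Hsph1, Hspd1 and Hspe1. Hspd1 and Hspe1 encode the mitochondrial chaperonin and its lid. At 1 annotated start of Hspd1 the genes lie head to head on chromosome 1, and the windows there share 285 bases and the same 3 matches. The window of another annotated Hspd1 start held 0 matches. Dnaja1, Cct2 and Cct5 also had windows without the core. The stretches upstream of the start are printed for a pair of ER genes with the stress element that differed in their response below, for Hsph1, and for the interval between the Hspd1 and Hspe1 starts, each 5′ to 3′ with the matched letters in capitals. In the first set the capitals mark the whole ER stress element, spacer included.
Hspa5 upstream, chr2:34771840-34772089, plus strand: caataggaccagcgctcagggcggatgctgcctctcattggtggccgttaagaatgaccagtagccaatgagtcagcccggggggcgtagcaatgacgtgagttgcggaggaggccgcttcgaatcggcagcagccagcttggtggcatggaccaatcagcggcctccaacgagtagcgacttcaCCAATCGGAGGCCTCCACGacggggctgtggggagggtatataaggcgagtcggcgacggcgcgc
Hsp90b1 upstream, chr10:86705445-86705694, minus strand: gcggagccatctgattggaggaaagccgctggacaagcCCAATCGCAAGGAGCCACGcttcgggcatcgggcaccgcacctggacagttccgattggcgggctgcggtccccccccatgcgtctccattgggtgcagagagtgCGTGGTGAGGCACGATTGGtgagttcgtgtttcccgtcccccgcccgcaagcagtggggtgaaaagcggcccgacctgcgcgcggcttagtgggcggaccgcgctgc
For the other set the capitals mark the heat shock element core, of which Hsph1 has the other 2 matches just after its start.
Hsph1 upstream, chr5:149636316-149636565, minus strand: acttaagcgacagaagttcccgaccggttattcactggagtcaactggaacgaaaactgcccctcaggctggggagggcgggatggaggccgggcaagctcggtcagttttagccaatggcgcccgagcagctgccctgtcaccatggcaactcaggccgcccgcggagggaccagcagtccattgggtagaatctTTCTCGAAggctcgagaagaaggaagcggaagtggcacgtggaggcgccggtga
Between Hspd1 and Hspe1, chr1:55087933-55088147, strand of Hspe1: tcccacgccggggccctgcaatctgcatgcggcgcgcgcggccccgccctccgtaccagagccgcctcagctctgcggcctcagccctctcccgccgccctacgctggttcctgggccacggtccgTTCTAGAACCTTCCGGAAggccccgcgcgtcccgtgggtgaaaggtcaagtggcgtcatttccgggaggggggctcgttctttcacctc

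**Figure D1:**
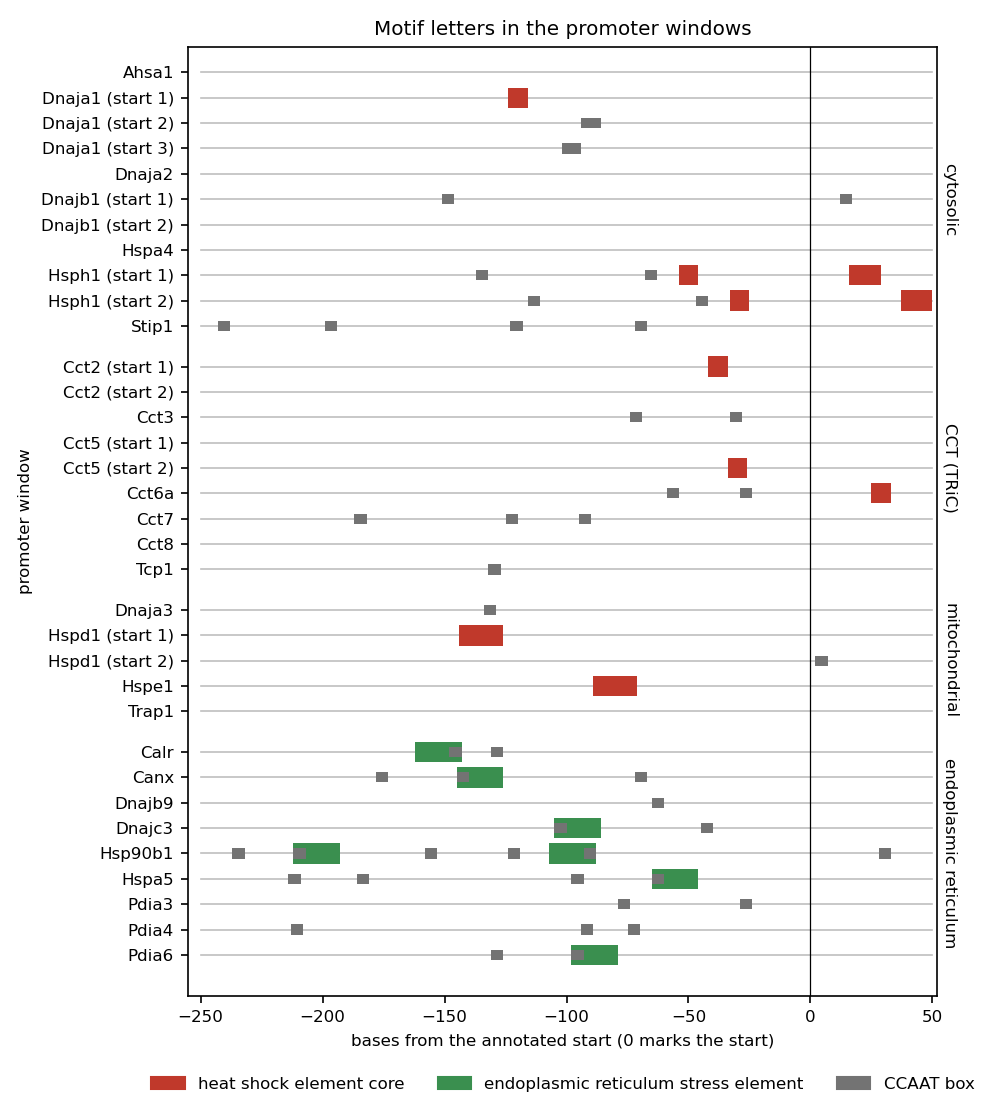
Promoter windows of the 27 chaperone genes with a RefSeq window, 1 line per annotated start, grouped by compartment; the x axis is the distance in bases from the start. Green boxes are ER stress elements, red boxes heat shock element cores and grey boxes CCAAT boxes: green appears in 6 ER genes, red in 7 genes of the other classes, and all 9 ER genes carry a CCAAT box.

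A CCAAT box, the letters CCAAT on either strand, lay in windows of 9 of 9 ER genes, 4 of 7 cytosolic, 4 of 7 CCT and 2 of 4 mitochondrial genes, against 42.5% of all genes tested with a window. The ER stress element contains a CCAAT box, so these counts overlap. The E-box CACGTG lay in windows of 4 genes, Hsph1, Hspd1, Calr and Dnajb9, and in windows of 1294 of the 12093 genes tested with a window.

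On stimulation the genes that rose were 4 cytosolic, 4 CCT, 2 mitochondrial and 1 ER gene in KO cells, and 3 cytosolic, 5 CCT, 3 mitochondrial and 1 ER gene in WT cells. In KO cells 11 of the 34 genes rose and 0 fell, where 8.13% of all genes tested were called, 5.85% higher and 2.27% lower. In WT cells 12 rose and 0 fell, where 10.3% of all genes were called, 6.42% higher and 3.84% lower. The median log2 fold change of the 34 was 0.36 in KO and 0.42 in WT cells, and that of all genes tested was -0.08 in KO and -0.09 in WT cells. Fold changes were positive for 28 of 34 genes in KO and 30 of 34 in WT cells. Both stimulated arrays lay above both medium arrays for 26 genes in KO cells, where 22.8% of all genes tested did so, and for 27 genes in WT cells, where 27.4% did. Both lay below for 3 genes in KO cells, where 28.6% of all genes tested did so, and for 3 in WT cells, where 42.1% did. In bulk samples fewer cells of a type and less RNA per cell cannot be told apart.

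The same 10 genes were called in both genotypes: Hsph1, Dnajc2, Stip1, Cct3, Cct6a, Cct7, Cct8, Hspd1, Hspa9 and Hspa5. Hspa4 was called in KO cells (limma, adjusted p = 0.0414) and not in WT cells (adjusted p = 0.0743). Tcp1 and Hspe1 were called in WT cells (limma, adjusted p = 0.0377 and 0.0463) and not in KO cells (adjusted p = 0.146 and 0.0624). None of these 3 genes had a response that differed between the genotypes in the test of that difference, given with the genotype comparisons.

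The counts rest on few arrays. In each fit of this paragraph, with an array left out, that gave fewer chaperone calls than the full fit, fewer of all genes tested were called too. A lower count alone thus does not set the chaperone genes apart. In WT cells 0 of the 34 were called when WT medium replicate 1, WT stimulated replicate 1 or WT stimulated replicate 2 was left out, and 5 without WT medium replicate 2. In the 3 fits with 0 calls, 13 to 17 of the 34 had an unadjusted p below 0.05, and the medians over the 34 genes in all 4 fits lay between 0.36 and 0.44. In KO cells the count was 11 without KO stimulated replicate 1, 3 without KO stimulated replicate 2, 2 without either KO medium array, 4 without either WT stimulated array and 6 without either WT medium array. An exact permutation test of 2 arrays against 2 cannot go below p = 0.333, so single genes have no such test here.

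The 2 replicate 2 arrays of KO cells also stood apart in markers of other cells. Neutrophil and neutrophil-precursor markers, 14 measured of 16 listed and 10 of them well above background on all arrays, had a median of 3.05 on KO stimulated replicate 2 and 4.15 on KO medium replicate 2, relative to WT medium. On the other 6 arrays this median lay between -1.10 and 0.25. The summed linear level of these markers, in multiples of the 75th percentile, was 444 on KO stimulated replicate 2 and 773 on KO medium replicate 2, against 144 to 256 on the other 6 arrays. Elane, the neutrophil elastase gene, read 5.13 and 6.36 there and between 2.15 and 2.92 elsewhere. Csf3r, a growth factor receptor gene that makes up most of the summed level on the other 6 arrays, went the other way, with 6.63 and 6.76 there and between 6.85 and 7.67 elsewhere. Erythroid and platelet markers, 10 measured of 11 with a RefSeq symbol, had medians of 2.54 and 2.04 there and between -0.67 and 0.56 elsewhere. All 16 T cell markers were well above background on every array. Their medians were -0.38 on KO stimulated replicate 2 and -0.35 on KO medium replicate 2, against -0.19 and 0.09 on the replicate 1 arrays. On the WT arrays they were -0.35 and -0.21 stimulated and -0.03 and 0.03 in medium. The monocyte, macrophage and dendritic cell markers, 8 measured of 11, stood apart there too, with medians of 0.48 and 0.73, against -0.37 to 0.10 elsewhere, and Csf1r among them read 3.55 and 3.85, against 1.13 to 1.66.

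The B cell, natural killer cell and plasma cell markers, all well above background on every array, were lowest in KO stimulated cells. The 12 B cell markers had medians of -0.90 and -0.84 in KO stimulated cells, against -0.45 and -0.59 in KO medium cells, and of -0.17 and -0.29 in WT stimulated cells, against 0.21 and -0.21 in WT medium cells. Medians of the 8 natural killer cell markers were -0.83 and -0.91 in KO stimulated cells, against -0.44 and -0.62 in KO medium cells, and -0.36 and -0.56 in WT stimulated cells, against 0.14 and -0.14 in WT medium cells. For the 5 plasma cell markers they were -0.62 and -0.31 in KO stimulated cells, against -0.01 and 0.22 in KO medium cells, and -0.15 and -0.27 in WT stimulated cells, against 0.01 and -0.01 in WT medium cells. The part of these markers in the chaperone values was not tested.

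Within the KO arrays the chaperone differences were mostly positive between either pair of same-numbered arrays. KO stimulated replicate 1 exceeded KO medium replicate 1 for 28 of 34 genes, with a median difference of 0.27, and the replicate 2 arrays did so for 29 of 34 genes, with a median of 0.44. The difference was larger between the replicate 2 arrays for 26 of 34 genes, including all 5 mitochondrial and 10 of 11 cytosolic genes. With both KO replicate 2 arrays left out, 0 of the 34 were called for KO cells by limma, 13 had an unadjusted p below 0.05, and the lowest adjusted p was 0.0546, for Hsph1. Fewer of all genes tested were called for KO cells in that fit too. The part of the other cells' markers in the KO values was not tested.

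**Figure D2:**
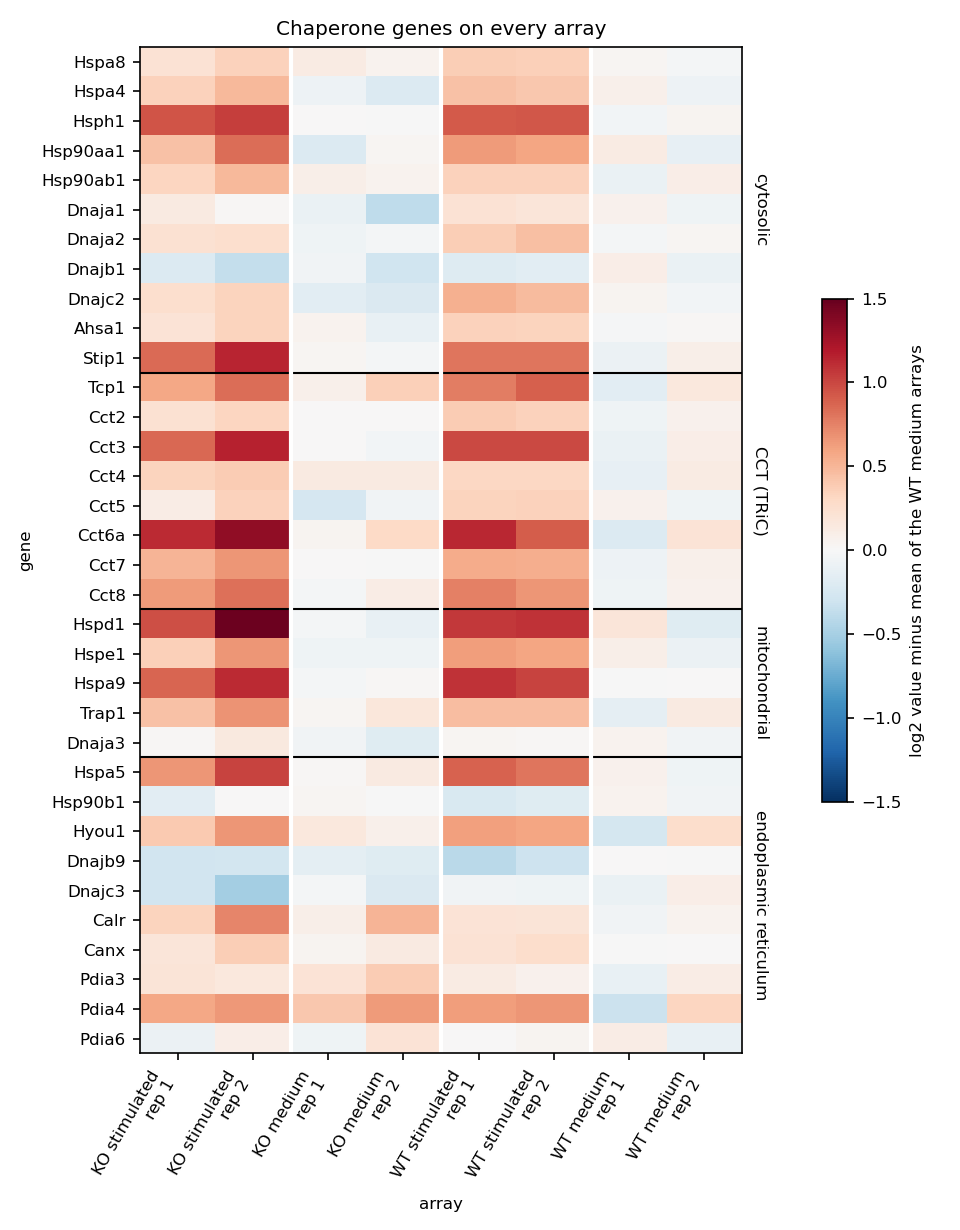
Heat map of the 34 chaperone genes (rows, by compartment) on the 8 arrays (columns, KO stimulated, KO medium, WT stimulated and WT medium); colour is the log2 value minus the mean of the 2 WT medium arrays. The stimulated arrays of both genotypes are red for Hsph1, Stip1, Cct3, Cct6a, Hspd1, Hspa9 and Hspa5, and Dnajb1, Hsp90b1, Dnajb9 and Dnajc3 are pale or blue there.

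**Figure D3:**
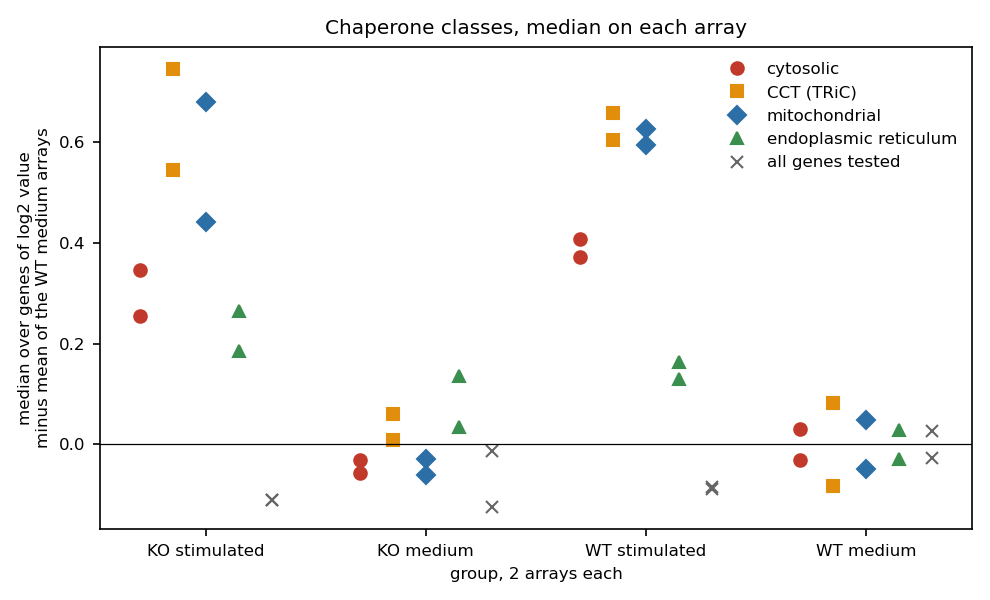
Median over the genes of each compartment class, and over all genes tested, of the log2 value minus the mean of the WT medium arrays; each point is 1 array. The CCT and mitochondrial medians lie between 0.44 and 0.75 on the 4 stimulated arrays and between -0.08 and 0.08 on the medium arrays, and the ER medians reach 0.27 at most.

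Among the cytosolic chaperones stimulation called 4 of 11 in KO cells (Hspa4, Hsph1, Dnajc2 and Stip1) and 3 of 11 in WT cells (the same without Hspa4), with medians of 0.33 in KO and 0.41 in WT cells. Of all genes tested 5.85% were called higher in KO and 6.42% in WT cells. Hsph1, an Hsp110 protein that serves as nucleotide exchange factor for Hsp70, read 3.74 and 3.84 in KO stimulated cells, against 2.80 and 2.79 in KO medium cells. In WT it read 3.71 and 3.73 stimulated, against 2.75 and 2.84 in medium. The stimulated and medium arrays were apart in both genotypes, and the 2 arrays of a group differed by 0.09 at most. The rise was 0.99 ± 0.10 (SE) in KO cells, or 1.99-fold (limma, adjusted p = 0.00540), and 0.93 ± 0.10 in WT cells, or 1.90-fold (adjusted p = 0.00678). The second Hsph1 probe gave 0.94 in KO and 0.86 in WT cells.

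Stip1, the bridge that hands clients from Hsp70 to Hsp90, read 2.66 and 2.95 in KO stimulated cells, against 1.84 and 1.78 in KO medium cells. The WT stimulated arrays read 2.62 and 2.61, against 1.72 and 1.90 on the WT medium arrays. All stimulated arrays lay above all medium arrays, by 0.996 ± 0.14 in KO (1.99-fold, limma adjusted p = 0.0123) and 0.80 ± 0.14 in WT (1.74-fold, adjusted p = 0.0232). Dnajc2, a J-domain protein of the ribosome, read 2.05 and 2.14 in KO stimulated cells, against 1.64 and 1.58 in KO medium cells. Its WT stimulated arrays read 2.34 and 2.27, against 1.84 and 1.76 on the WT medium arrays. This smaller rise exceeded the spread in both genotypes, at 0.48 ± 0.10 in KO (adjusted p = 0.0451) and 0.50 ± 0.10 in WT cells (adjusted p = 0.0368).

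Hspa4, another exchange factor of the Hsp110 group, read 5.47 and 5.61 in KO stimulated cells, against 5.04 and 4.92 in KO medium cells. It read 5.56 and 5.53 in WT stimulated cells, against 5.19 and 5.05 in WT medium cells. The groups did not overlap in either genotype, and this brightest probe gave 0.56 ± 0.12 in KO and 0.42 ± 0.12 in WT cells. Its other 2 probes gave between -0.08 and 0.07 in either genotype, so the call of Hspa4 depends on the probe.

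Hsp90aa1, the inducible cytosolic Hsp90, read 5.15 and 5.55 in KO stimulated cells, against 4.51 and 4.75 in KO medium cells. It read 5.35 and 5.31 in WT stimulated cells, against 4.84 and 4.60 in WT medium cells. The groups did not overlap, and the differences of 0.72 ± 0.18 in KO and 0.61 ± 0.18 in WT cells missed the threshold (limma, adjusted p = 0.0657 and 0.0833). Hsp90ab1, the constitutive Hsp90, gave 0.33 and 0.34 without being called. The chosen probe of Hspa8, the constitutive Hsp70, read 7.76 and 7.89 in KO stimulated cells, against 7.66 and 7.59 in KO medium cells. WT cells read 7.91 and 7.89 stimulated, against 7.57 and 7.51 in medium. These arrays did not overlap, but the probe gave 0.20 ± 0.11 in KO and 0.36 ± 0.11 in WT cells and was not called. Both other Hspa8 probes gave more, 0.60 and 0.74 in KO and 0.67 and 0.80 in WT cells, and in a fit over probes both were called in WT cells (limma, adjusted p = 0.0377 and 0.0296) and 1 of them in KO cells (adjusted p = 0.0395, the other 0.0587). The value for Hspa8 therefore differs by probe by more than 1.5 times.

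Of the remaining cytosolic genes, the J-domain proteins Dnaja1 and Dnaja2 and the Hsp90 activator Ahsa1 lay between 0.20 and 0.41 in either genotype without being called. Dnajb1, the J-domain partner of Hsp70 known for its strong heat induction, read 5.22 and 5.07 in KO stimulated cells, against 5.37 and 5.13 in KO medium cells. WT stimulated cells read 5.23 and 5.27, against 5.53 and 5.33 in WT medium cells. Its differences, -0.10 ± 0.14 in KO and -0.17 ± 0.14 in WT cells, were the only negative ones of the class, and their 95% intervals reached up to 0.23 in KO and 0.16 in WT cells.

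All 8 CCT subunit genes had positive fold changes in both genotypes. For each of them both stimulated arrays lay above both medium arrays, as for 22.8% of all genes tested in KO and 27.4% in WT cells. Cct3, Cct6a, Cct7 and Cct8 rose in KO cells, where 5.85% of all genes tested were called higher. The same 4 with Tcp1 rose in WT cells, where 6.42% were. The class median was 0.54 in KO and 0.63 in WT cells. Although the 8 proteins stand in 1 ring, the fold changes ran between 0.22 (Cct4) and 1.05 (Cct6a) in KO and between 0.31 (Cct4) and 1.02 (Cct6a) in WT cells. The genes with the smallest values were Cct4, Cct2 and Cct5, none of them called, with log2 fold changes between 0.22 and 0.38.

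Cct6a, the zeta subunit, read 3.03 and 3.24 in KO stimulated cells, against 1.95 and 2.21 in KO medium cells. The WT stimulated arrays read 3.04 and 2.82, against 1.71 and 2.11 on the WT medium arrays. The groups were far apart, and the 2 WT medium arrays differed by 0.40. Its rise was 1.05 ± 0.19 in KO (2.07-fold, limma adjusted p = 0.0262) and 1.02 ± 0.19 in WT cells (2.03-fold, adjusted p = 0.0280). Cct3, the gamma subunit, read 3.36 and 3.65 in KO stimulated cells, against 2.51 and 2.45 in KO medium cells. Its WT stimulated arrays both read 3.49, against 2.40 and 2.59 on the WT medium arrays. This rise was 1.02 ± 0.14 in KO (2.03-fold, adjusted p = 0.0116) and 0.99 ± 0.14 in WT cells (1.98-fold, adjusted p = 0.0131).

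Tcp1, the alpha subunit after which the complex was first named, read 4.48 and 4.74 in KO stimulated cells, against 3.97 and 4.25 in KO medium cells. WT stimulated cells read 4.67 and 4.79, against 3.74 and 4.05 in WT medium cells. KO medium replicate 2 was the highest of the medium arrays. The difference was 0.50 ± 0.17 in KO cells, which was not called, and 0.83 ± 0.17 in WT cells, or 1.78-fold. Cct8 and Cct7, the theta and eta subunits, were called in both genotypes. Cct8 read 4.72 and 4.90 in KO stimulated cells, against 4.05 and 4.19 in KO medium cells, and 4.83 and 4.74 in WT stimulated cells, against 4.02 and 4.14 in WT medium cells. Cct7 read 5.09 and 5.25 in KO stimulated cells, against 4.59 and 4.58 in KO medium cells, and 5.14 and 5.12 in WT stimulated cells, against 4.51 and 4.65 in WT medium cells. Cct8 rose by 0.69 ± 0.12 in KO and 0.71 ± 0.12 in WT cells, and Cct7 by 0.58 ± 0.11 in KO and 0.55 ± 0.11 in WT cells.

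The mitochondrial genes held the largest rise of all 34, that of Hspd1. Stimulation called 2 of 5 in KO cells (Hspd1 and Hspa9) and 3 of 5 in WT cells (with Hspe1), with medians of 0.57 in KO and 0.61 in WT cells. The share of all genes tested called higher was 5.85% in KO and 6.42% in WT cells. Hspd1, the mitochondrial chaperonin, read 5.30 and 5.80 in KO stimulated cells, against 4.31 and 4.22 in KO medium cells. In WT it read 5.40 and 5.42 stimulated, against 4.52 and 4.16 in medium. KO stimulated replicate 2 was the highest of the 8 arrays, 0.51 above its replicate. The rise was 1.29 ± 0.20 in KO (2.44-fold, limma adjusted p = 0.0178) and 1.07 ± 0.20 in WT cells (2.10-fold, adjusted p = 0.0292). Between the KO replicate 1 arrays alone the difference was 0.99.

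Hspa9, the Hsp70 of mitochondria that pulls imported proteins through the inner membrane, read 4.26 and 4.51 in KO stimulated cells, against 3.36 and 3.40 in KO medium cells. The WT stimulated arrays read 4.47 and 4.41, against 3.38 and 3.39 on the WT medium arrays. The 4 medium arrays lay within 0.05 of each other. Its rise was 1.002 ± 0.12 in KO (2.003-fold, limma adjusted p = 0.00853) and 1.05 ± 0.12 in WT cells (2.07-fold, adjusted p = 0.00789).

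Hspe1 encodes the lid of the chaperonin and shares the promoter region printed above with Hspd1. It read 4.89 and 5.19 in KO stimulated cells, against 4.46 and 4.47 in KO medium cells. In WT it read 5.15 and 5.12 stimulated, against 4.61 and 4.44 in medium. The differences were 0.57 ± 0.14 in KO and 0.61 ± 0.14 in WT cells, and its other 2 probes gave between 0.57 and 0.68. The same stimulation thus gave 1.29 and 1.07 for Hspd1 beside 0.57 and 0.61 for Hspe1 in KO and WT cells, on different probes, and the difference between the genes was not tested. Trap1, the mitochondrial Hsp90, gave 0.46 in both genotypes without being called. Dnaja3, a mitochondrial J-domain protein, gave 0.20 ± 0.11 in KO and 0.02 ± 0.11 in WT cells and was not called.

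Of the 10 ER genes only Hspa5 was called, in both genotypes, a count near the share of all genes tested that were called (8.13% in KO and 10.3% in WT cells), and the class medians of 0.02 in KO and 0.15 in WT cells were near 0. Hspa5 encodes BiP, the Hsp70 of the ER lumen. It read 6.10 and 6.46 in KO stimulated cells, against 5.46 and 5.57 in KO medium cells. WT stimulated cells read 6.32 and 6.24, against 5.51 and 5.38 in WT medium cells. The rise was 0.76 ± 0.15 in KO (1.69-fold, limma adjusted p = 0.0346) and 0.84 ± 0.15 in WT cells (1.79-fold, adjusted p = 0.0249).

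The other ER genes that carry the stress element were not called in either genotype. Hsp90b1, the Hsp90 of the ER, has a pair of stress elements in its window and read 5.29 and 5.45 in KO stimulated cells, against 5.47 and 5.44 in KO medium cells. It read 5.22 and 5.26 in WT stimulated cells, against 5.50 and 5.38 in WT medium cells. Its differences were -0.08 ± 0.11 in KO and -0.20 ± 0.11 in WT cells, with 95% intervals up to 0.19 and 0.07, so a rise as large as that of Hspa5 lies outside both intervals. The lectin chaperones Calr and Canx gave between 0.18 and 0.24 in either genotype, Pdia6 gave -0.07 in KO and 0.02 in WT cells, and Dnajc3 gave -0.27 in KO and -0.06 in WT cells, none of them called. Of the 6 genes with the element, 1 was thus called in KO and the same gene in WT cells.

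Hyou1, the large exchange factor that recharges BiP, read -3.29 and -3.02 in KO stimulated cells, against -3.51 and -3.60 in KO medium cells. The WT stimulated arrays read -3.06 and -3.08, against -3.94 and -3.41 on the WT medium arrays. It lay above medium on both stimulated arrays of each genotype, by 0.41 ± 0.20 in KO and 0.61 ± 0.20 in WT cells, and was not called (limma, adjusted p = 0.258 and 0.106). Pdia4, a disulfide isomerase, read -0.07 and -0.00 in KO stimulated cells, against -0.25 and -0.02 in KO medium cells. It read -0.03 and 0.01 in WT stimulated cells, against -0.97 and -0.34 in WT medium cells. WT medium replicate 1 was the lowest of the 8 arrays, and neither the difference of 0.10 ± 0.22 in KO nor that of 0.65 ± 0.22 in WT cells was called (adjusted p = 0.820 and 0.115). Pdia3, the isomerase that works with the lectin chaperones, gave -0.11 in KO and 0.10 in WT cells. Dnajb9, a J-domain partner of BiP, read 1.03 and 1.04 in KO stimulated cells, against 1.17 and 1.14 in KO medium cells, and 0.91 and 1.01 in WT stimulated cells, against 1.32 and 1.31 in WT medium cells. It lay below medium on both stimulated arrays of each genotype, by -0.12 ± 0.10 in KO and -0.36 ± 0.10 in WT cells, and was not called (adjusted p = 0.514 and 0.0779).

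**Figure D4:**
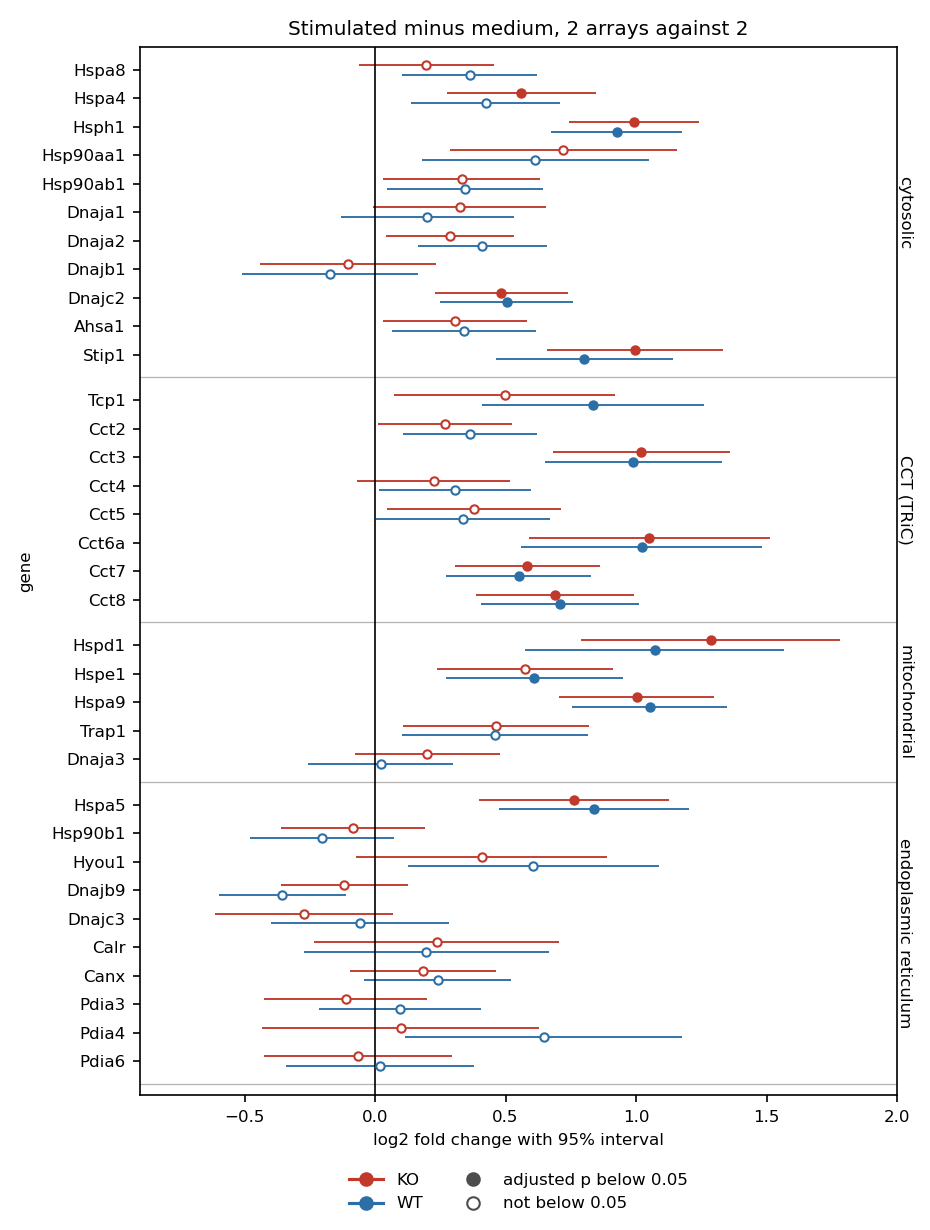
Log2 fold change on stimulation for each of the 34 chaperone genes, KO above WT, with 95% intervals of the limma fit and 2 arrays per group; filled circles have an adjusted p below 0.05. All CCT and mitochondrial circles lie right of 0, and of the ER genes only Hspa5 is filled.

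Lists of further genes of the same machineries, with no chaperone of the 34 in them, gave the surroundings of these changes. Of 39 measured genes of the cytosolic heat shock machinery, 3 rose in KO and 3 in WT cells and 0 fell, a share near the 5.85% and 6.42% of all genes tested that were called higher in KO and in WT cells. Their medians were 0.02 in KO and -0.11 in WT cells. Hspbp1, an exchange factor of Hsp70, gave 0.84 in KO and 0.78 in WT cells, and Fkbp4, an Hsp90 cochaperone of steroid receptors, gave 0.67 in KO and 0.71 in WT cells, both called in both. Dnajc7, which binds both Hsp70 and Hsp90, was called in WT cells (0.82, limma adjusted p = 0.0414) and not in KO cells (0.67, adjusted p = 0.0772). The third gene called in KO cells, named here after its value was seen, was Ppid, an Hsp90-binding prolyl isomerase (0.80 in KO, and 0.50 without a call in WT cells).

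Of 16 prefoldin and CCT cofactor genes 0 rose in KO and 1 in WT cells, again near the share of all genes called higher. The 1 was Pfdn4, a subunit of the prefoldin that feeds CCT, with 0.57 in KO and 0.59 in WT cells (limma, adjusted p = 0.0600 and 0.0494). Of 25 genes of mitochondrial protein import and folding 5 rose in KO and 6 in WT cells and 0 fell, beside the same 5.85% and 6.42% of all genes, with medians of 0.30 in KO and 0.27 in WT cells. Timm8a1, Timm10 and Timm9 encode small chaperones of the space between the mitochondrial membranes. Timm8a1 read 3.07 and 3.60 in KO stimulated cells, against 1.77 and 1.81 in KO medium cells. WT stimulated cells read 3.27 and 3.20, against 1.89 and 1.76 in WT medium cells. These values gave Timm8a1 a rise of 1.54 ± 0.19 in KO and 1.41 ± 0.19 in WT cells. Timm10 rose by 1.38 in KO and 1.01 in WT cells, and Timm9 by 1.11 in KO and 0.89 in WT cells. Ppif, the prolyl isomerase of the mitochondrial matrix, gave 0.74 in KO cells, where it was not called (adjusted p = 0.0523), and 0.77 in WT cells, where it was.

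Of 48 genes of ER folding and the unfolded protein response 0 rose and 4 fell in each genotype, where 2.27% of all genes tested were called lower in KO and 3.84% in WT cells, and the medians were -0.11 in KO and -0.10 in WT cells. The 4 were the same genes in both. Trib3, a target of the stress factor CHOP, read 1.60 and 1.66 in KO stimulated cells, against 3.15 and 2.65 in KO medium cells. The WT stimulated arrays read 1.65 and 1.80, against 3.58 and 3.22 on the WT medium arrays. It fell by 1.27 in KO (limma, adjusted p = 0.0194) and 1.67 in WT cells (adjusted p = 0.0095). The kinase genes Eif2ak3 and Ern1, whose products sense unfolded proteins in the ER membrane, fell by 1.004 and 0.63 in KO and by 1.004 and 0.69 in WT cells. Xbp1, the transcription factor spliced by the Ern1 product, fell by 0.77 in KO and 0.64 in WT cells. The medians of the plasma cell markers, given above, lay lower on stimulation on the same arrays, though not every marker did. Sdc1 among them read 0.08 and 0.24 in KO stimulated cells, against 1.31 and 1.68 in KO medium cells. Sdc1 read 0.53 and 0.30 in WT stimulated cells, against 1.25 and 1.52 in WT medium cells. Prdm1, another of these markers, went the other way, with 0.37 and 0.65 in KO stimulated cells, against 0.22 and 0.27 in KO medium cells. In WT it read 0.67 and 0.53 stimulated, against 0.29 and 0.04 in medium. The part of the plasma cell markers in the values of Trib3, Eif2ak3, Ern1 and Xbp1 was not tested. The arrays measured total Xbp1 signal through 1 probe, and the spliced form is not told apart by it.

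The comparison of KO with WT cells asks whether loss of Lsp1 changed these genes. No chaperone gene was called after stimulation, where 0.0198% of all genes tested were called, nor in medium, where 0.00661% were. At an unadjusted p below 0.05 (limma) the count was also 0 of 34 in both. Of the 15138 genes tested 762 passed that mark after stimulation and 864 in medium, so 0 of 34 does not by itself set the chaperone genes apart. The median KO minus WT difference over the 34 was 0.01 after stimulation and 0.00 in medium, with single differences between -0.34 and 0.34 after stimulation and between -0.25 and 0.52 in medium. The 95% intervals over all 34 genes reached down to -0.68 (Dnajc3) and up to 0.81 (Calr) after stimulation, and down to -0.58 (Dnaja1) and up to 1.05 (Pdia4) in medium. The width differed between genes, and the interval of Hsph1 in medium was -0.25 to 0.25. The KO values contain the replicate 2 arrays with the high neutrophil and erythroid markers.

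Calr, the soluble lectin chaperone of the ER, read 3.78 and 4.18 in KO stimulated cells, against 3.64 and 3.63 in WT stimulated cells. In medium it read 3.53 and 3.95 in KO cells, against 3.39 and 3.49 in WT cells. Both KO replicate 2 arrays lay above their replicates by 0.40 to 0.42, and the KO minus WT difference was 0.34 ± 0.19 after stimulation and 0.30 ± 0.19 in medium (limma, adjusted p = 0.932 and 0.736). Dnajc3, the ER J-domain protein that also inhibits the kinase encoded by Eif2ak3, read 1.64 and 1.42 in KO stimulated cells, against 1.88 and 1.87 in WT stimulated cells. In medium it read 1.90 and 1.71 in KO cells, against 1.83 and 2.03 in WT cells. The groups were apart after stimulation, by -0.34 ± 0.14 (adjusted p = 0.932), and overlapped in medium. Pdia4, with the values given above, had the largest difference in medium, 0.52 ± 0.22 (adjusted p = 0.736), with WT medium replicate 1 the lowest of the 8 arrays.

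Both KO arrays lay above both WT arrays after stimulation for 7 genes and below them for 7, where 13.2% of all genes tested lay above and 24.8% below. In medium 6 genes lay above and 6 below, where 12.8% and 21.3% of all genes tested did.

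The stimulation responses were also compared with each other. The KO response minus the WT response had a median of -0.02 over the 34 genes, and 0 were called, where 0.00661% of all genes tested were called. At an unadjusted p below 0.05 (limma) the count was 0 of 34, beside 459 of the 15138 genes tested, which again does not set the chaperone genes apart. Fold changes had the same sign in both genotypes for 32 of 34 genes. The largest differences of response were -0.55 ± 0.31 for Pdia4 and -0.34 ± 0.25 for Tcp1, and neither was called. For Hspa4 and Hspe1 the differences were 0.14 ± 0.17 and -0.04 ± 0.20. The 95% intervals of the 34 reached down to -1.30 (Pdia4) and up to 0.91 (Hspd1).

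**Figure D5:**
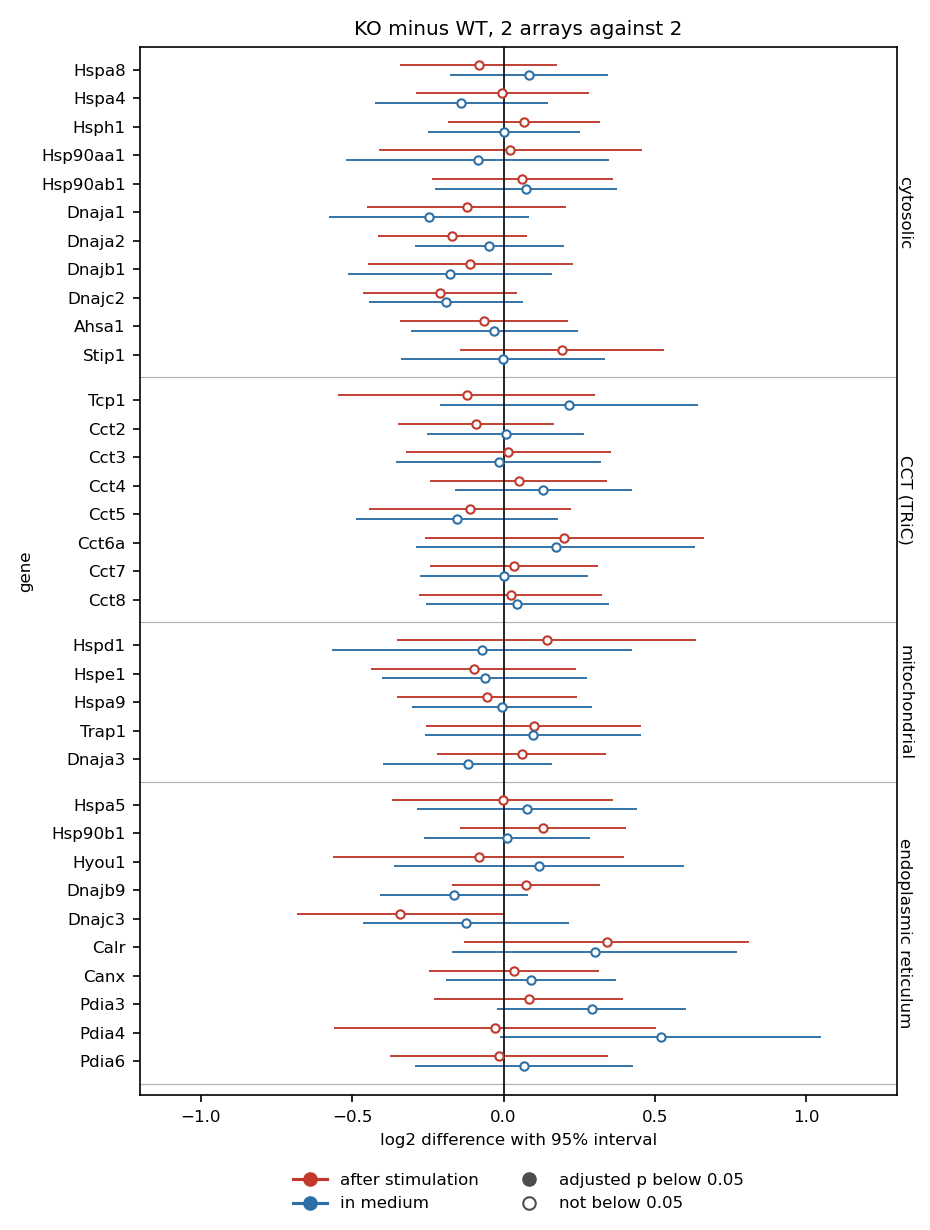
KO minus WT difference (log2) after stimulation, above, and in medium, below, for each of the 34 chaperone genes, with 95% intervals of the limma fit and 2 arrays per group. No circle is filled, and every interval spans 0.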

How the data were processed

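Cy3-labelled RNA of 8 samples was hybridised to 8 one-colour Agilent arrays on 1 slide, read in 1 scan. Per the file headers, the deposited intensities are linear spot values from Feature Extraction 10.7.1.1 (Agilent), on an array design of build mm9. The processed intensity has that program's background taken off. On the slide the stimulated and medium arrays occupy different rows and the genotypes different columns, and these positions cannot be told apart from the groups. The deposited value table repeats the scanner's median intensity, uncentred, and served as an alternative.

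Here control and outlier spots were dropped, repeated spots averaged and log2 intensities centred on each array's 75th percentile. A probe was kept (37255 were) if both arrays of some group had it well above background. On single arrays 58.4% to 69.2% of probes passed that mark, and the number of arrays limits the precision. Accessions, matched without versions to RefSeq names, named 26056 of 55681 probes. The brightest probe of each gene was used, giving 15138 genes. The 34 chaperone genes had 45 probes, and 8 of them had more than 1. Cross-hybridisation with near-identical copies was not tested.

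The means of the 4 groups were fitted with limma 3.58.1 (R 4.3.3, data.table version 1.17.8, statmod 1.5.0), with 4 residual and 2.11 prior degrees of freedom. The 5 contrasts were two-sided. The fit was tested on simulated data. The replicate numbers were not taken as pairing the samples.

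The chaperone genes, the gene lists and the tests were chosen with earlier results of these data known. Array values are given, per class, for the 3 largest changes on stimulation in WT, for the 2 largest differences in each genotype contrast, and for any gene called there; from each further list up to 4 genes called in WT are named. The array values of Dnajc2, Hspa4, Hspa8, Dnajb1, Cct7, Cct8, Hsp90b1, Dnajb9, Timm8a1 and Trib3 were added after they were seen.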

Additional observations from a re-analysis of the deposited data

How the results depend on the processing

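Across 20 alternatives the count of chaperone genes called on stimulation kept within 1.5 times of the reported 11 in KO and 12 in WT cells except as follows. In KO cells it was 7 with centring on each array's median, 6 with no filter on dim probes, 5 with array weights, 0 with only the KO arrays fitted (38 of all genes called) and 0 without both KO replicate 2 arrays (436 of all genes called), with 13 of the 34 at an unadjusted p below 0.05 in each of the last 2; leaving out single arrays gave 2 to 11. In WT cells it was 22 with array weights, of which 1, Dnajb9, was lower, and leaving out single arrays gave 0 to 12. The share of all genes tested that were called moved with these settings too. In KO cells it was 7.17% with centring on the median, 4.22% with no filter and 4.64% with array weights, against 8.13% as reported. In WT cells it was 22.9% with array weights, against 10.3% as reported. An arm left with 1 array was assumed to vary like the other groups. Fewer samples were fitted in the runs that leave arrays out or fit 1 genotype. With only the WT arrays fitted the count in WT cells was 13, beside 17.9% of all genes tested. The cause of a changed count was not tested under any setting. The planned normexp correction used the scanner's median signal, since the files used here give no mean signal. With the replicate number as a replicate block the counts were 8 in KO and 10 in WT cells, beside 7.58% and 10.3% of all genes tested. With a replicate block within genotype they were 14 and 14, beside 18.3% in KO and 23.3% in WT cells. Same-numbered deviations correlated by 0.742 between the KO groups, 0.161 between the WT groups and -0.244 to -0.0613 across genotypes. The reported fit did not take the numbers as pairing in either genotype. Whether same-numbered KO samples share a source was not tested. In the genotype contrasts and the difference of responses 0 of the 34 were called by limma under every alternative fitted, with 0 to 2 at an unadjusted p below 0.05. Centring on the array median moved the median of all genes on stimulation in WT cells to 0.03, against -0.09 as reported, while the chaperone median stayed 0.51 above it. Lsp1 kept its direction throughout. Its KO minus WT difference was no longer called with only the compared groups fitted (-3.35 after stimulation, adjusted p = 0.0753, and -3.79 in medium, adjusted p = 0.0689) or without both KO replicate 2 arrays (-3.33 after stimulation, adjusted p = 0.0704, and -3.71 in medium, adjusted p = 0.170). Over all alternatives its adjusted p lay between 0.000384 and 0.0753 after stimulation and between 0.000175 and 0.170 in medium, and leaving out single arrays gave differences of -3.39 to -3.32 and of -3.92 to -3.67, with the call after stimulation lost without WT stimulated replicate 2 (adjusted p = 0.0602). Depth in the sense of read counts does not apply, and the 2 arrays per group limit what could be called.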
